A study of Mus musculus with 12 samples.

Results

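A set of 10 genes that mark T cells and natural killer (NK) cells, or the granules with which these cells kill, were followed in mouse liver without tumour: Cd3e, Cd3g, Cd3d, Cd8a, Cd8b1, Cd4, Gzma, Gzmb, Nkg7 and Prf1. They were chosen by name, and all 10 of 10 were found among the 24421 genes of the deposited count table. RNA was sequenced from 12 male mice killed at 4 months of age, 3 in each of 4 groups. LiK mice on the normal diet, LiK mice on ACR, LiKM mice on the normal diet and LiKM mice on ACR were compared, and ACR, an acyclic retinoid, made up 0.06% of the food from 5 weeks of age. The labels give strain names only. As the study is known, hepatocytes of LiKM mice have lost Mdm2, whose product marks p53 for degradation, and those of LiK mice have not. Titles number the mice, and p-values measure the spread between these samples.

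T cells read antigen with a receptor whose signal is carried by the CD3 chains. The coreceptors CD8 and CD4 bind major histocompatibility complex class I and class II and mark killer and helper T cells. Killer T cells and NK cells hold granules with perforin, which opens the target membrane, and granzymes, proteases that enter through it. Mouse liver is rich in NK cells and holds T cells in its sinusoids and portal tracts. CD4 is also found on dendritic cells and some macrophages, so that Cd4 RNA in whole liver is not a measure of helper T cells alone.

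These transcripts were rare. Libraries held 10124813 to 18647156 counts, and the 10 genes together took 83.1 to 120 of these in LiK libraries and 140 to 377 in LiKM libraries. Among the 12 libraries the highest value was that of LiKM ACR 3 for 8 of the 10 genes. Among the 6 LiK libraries LiK ACR 3 was highest for 6 genes, and among the 6 LiKM libraries LiKM normal diet 1 was lowest for 7. The share of counts from albumin, the main product of hepatocytes, lay between 8.01% and 13.0%. The 8 hepatocyte markers summed to 91784 to 170184 CPM in the libraries, a level that matches a liver label. None of the 8 was at 0 in any group, which at such levels says little. Clock genes, whose RNA follows the hour of the day, differed between libraries. Npas2 was at 10.4 and 18.2 CPM (counts scaled to the size of the library) in LiKM ACR 2 and 3, and at 1.51 CPM or less in the other 10 libraries. Nr1d1 was at 214 CPM in LiKM normal diet 3 and at 20.7 or less in the other LiKM mice on that diet. Counts are given below also without these 3 libraries. Dbp was at 25.6 to 35.9 CPM in LiK mice that ate normal food and at 136 to 139 in those given ACR, so that diet and clock state cannot be told apart in LiK.

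The granule genes lie on separate chromosomes (build mm10). Gzma spans 113093825 to 113100981 of chromosome 13, Gzmb 56258838 to 56262260 of chromosome 14, Nkg7 43437073 to 43438249 of chromosome 7 and Prf1 61297833 to 61304680 of chromosome 10. Promoters of 8 of the 10 genes, from 250 bases before to 50 after the start, were matched in RefSeq (GRCm38.p6). The starts of these 8 are those of RefSeq and can differ from the spans above. The window of Gzmb lies wholly upstream of its span. The letters TGTGGT, bound by RUNX factors, occurred on either strand in 4 of these 8, namely the 4 granule genes, against 16.8% of all promoters. The ETS letters GGAAGT were in 3 of 8 (Cd3d, Cd3e and Prf1) against 23.8%. The T-box letters GGTGTGA were in 1 of 8 (Nkg7) against 3.98%. The 4 granule gene promoters are shown because only they, of the 8, hold the RUNX letters; capitals mark matches to any of the 3 motifs on either strand, and no matches overlap. These are matches of letters, not measured binding. Each is written on the strand of its gene, and they lie at chr13:113100932-113101231 (Gzma, minus strand), chr14:56262285-56262584 (Gzmb, minus strand), chr7:43436888-43437187 (Nkg7, plus strand) and chr10:61297586-61297885 (Prf1, plus strand).
Gzma: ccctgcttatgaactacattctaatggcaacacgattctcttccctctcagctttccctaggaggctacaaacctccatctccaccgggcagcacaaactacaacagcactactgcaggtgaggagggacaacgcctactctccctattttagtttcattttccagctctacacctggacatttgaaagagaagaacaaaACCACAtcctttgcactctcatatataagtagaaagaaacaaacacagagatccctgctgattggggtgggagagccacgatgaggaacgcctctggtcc
Gzmb: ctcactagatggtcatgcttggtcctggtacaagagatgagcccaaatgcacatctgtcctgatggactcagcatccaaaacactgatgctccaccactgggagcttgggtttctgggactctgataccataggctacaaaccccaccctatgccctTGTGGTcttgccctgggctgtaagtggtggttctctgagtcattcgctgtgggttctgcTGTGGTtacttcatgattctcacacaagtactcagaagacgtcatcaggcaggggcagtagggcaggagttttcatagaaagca
Nkg7: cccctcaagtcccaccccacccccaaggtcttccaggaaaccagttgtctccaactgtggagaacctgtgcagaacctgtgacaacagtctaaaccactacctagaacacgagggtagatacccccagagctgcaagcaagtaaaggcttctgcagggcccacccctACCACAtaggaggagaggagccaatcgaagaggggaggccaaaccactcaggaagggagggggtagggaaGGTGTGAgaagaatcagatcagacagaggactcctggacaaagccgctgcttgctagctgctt
Prf1: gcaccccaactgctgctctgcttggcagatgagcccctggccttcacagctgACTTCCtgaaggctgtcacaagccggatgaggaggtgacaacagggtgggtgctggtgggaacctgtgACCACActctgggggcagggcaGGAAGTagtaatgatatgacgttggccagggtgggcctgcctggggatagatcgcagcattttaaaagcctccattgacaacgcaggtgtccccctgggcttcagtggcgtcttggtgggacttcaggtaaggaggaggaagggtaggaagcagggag

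The CD3 chains had few counts in LiK livers and more in LiKM livers. Cd3e (chromosome 9, 44998740 to 45009627) encodes CD3 epsilon, which forms pairs with the delta and gamma chains. It had 1, 6 and 1 counts in LiK on the normal diet, 6, 5 and 16 in LiK on ACR, 13, 26 and 13 in LiKM on the normal diet and 11, 28 and 48 in LiKM on ACR. The LiKM libraries lay above the LiK libraries on the normal diet, but on ACR LiK ACR 3 (1.10 CPM) lay above LiKM ACR 1 (0.684 CPM). Cd3g (44969572 to 44980431), the gamma chain, was counted 3, 5 and 0 times in LiK on normal food, 2, 1 and 8 times in LiK on ACR, 9, 18 and 23 times in LiKM on normal food and 22, 24 and 39 times in LiKM on ACR. Within each diet all LiKM libraries lay above all LiK libraries for Cd3g. Cd3d (44981786 to 44987339), the delta chain, lies 1355 bases from Cd3g on the other strand. It had 1 to 6 counts in LiK libraries and 7 to 13.77 in LiKM libraries, and in CPM the strains did not overlap within either diet. On ACR the margin was slight, with LiK ACR 1 at 0.433 CPM and LiKM ACR 1 at 0.435. Values of Cd3d were not whole in 3 of 12 libraries, for a reason the files do not give. Cd3e overlaps the predicted genes Gm48719 on the opposite strand and Gm48720 on its own.

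Cd8a separated the strains on both diets. It encodes the alpha chain of CD8 (chromosome 6, 71373427 to 71379173), found in the heterodimer with beta on killer T cells and as a homodimer on other lymphocytes and some dendritic cells. Cd8a had 7, 2 and 0 counts in LiK on the normal diet, 6, 5 and 5 in LiK on ACR, 29, 50 and 20 in LiKM on normal food and 53, 31 and 73 in LiKM on ACR. In CPM these were 0.202 ± 0.258, 0.370 ± 0.0549, 2.28 ± 1.07 and 3.28 ± 1.18 (mean ± SD, n = 3; group levels below are given likewise), and the 6 LiKM libraries lay above the 6 LiK libraries. Cd8b1, the beta chain that is more specific to T cells of the CD8 lineage (71322788 to 71337494, 35933 bases before Cd8a), was counted 1.12, 1 and 0 times in the LiK mice on normal food and 2, 5 and 10 times in those on ACR. The LiKM counts were 8.2, 11 and 8 on normal food and 19, 18.33 and 26 with the drug. The highest LiK library on ACR, LiK ACR 3 at 0.686 CPM, reached the level of LiKM on the normal diet (0.630 ± 0.148 CPM).

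Cd4 ran the other way. This coreceptor gene (124864692 to 124888221 of chromosome 6) had 64, 79 and 76 counts in LiK on the normal diet, 50, 55.33 and 38 in LiK on ACR, 44, 52 and 29.33 in LiKM on the normal diet and 36, 22 and 32 in LiKM on ACR. Group levels were 5.11 ± 1.08, 3.29 ± 0.594, 2.87 ± 0.707 and 1.89 ± 0.377 CPM, highest in LiK on the normal diet and lowest in LiKM on ACR. The LiK libraries on ACR and the LiKM libraries on the normal diet overlapped. Of the 10 genes, Cd4 was the one with its highest value in a LiK library, at 6.36 CPM in LiK normal diet 3.

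The granule genes were also higher in LiKM, except for Gzma. Gzmb encodes granzyme B, the protease that starts apoptosis in target cells. It was counted 2, 2 and 2 times in LiK on normal food, 3, 7 and 10 times in LiK on ACR, 7, 19 and 24 times in LiKM on normal food and 20, 23 and 32 times in LiKM on ACR. Its strains did not overlap within either diet. Nkg7, a granule membrane protein needed for release of the granule contents, was counted 1, 6 and 6 times in LiK on normal food, 4, 11 and 11 times in LiK on ACR, 15, 34 and 29 times in LiKM on normal food and 19, 27 and 83 times in LiKM on ACR. All 6 LiKM libraries (lowest 0.900 CPM) lay above all 6 LiK libraries (highest 0.755 CPM), and LiKM ACR 3 stood far above the rest at 5.06 CPM. Prf1, perforin, was counted 0, 2 and 1 times in LiK on normal food, 0, 4 and 8 times in LiK on ACR, 5, 7 and 4 times in LiKM on normal food and 10, 11 and 16 times in LiKM on ACR. Within each diet the LiKM libraries lay above the LiK libraries for Prf1. Gzma, granzyme A, a trypsin-like protease abundant in NK cells, was counted 3, 4 and 1 times in LiK on normal food, 5, 14 and 9 times in LiK on ACR, 3, 6 and 30 times in LiKM on normal food and 8, 10 and 14 times in LiKM on ACR. For Gzma the strains overlapped on both diets, and the mean of LiKM on the normal diet (0.996 ± 1.21 CPM) rested on LiKM normal diet 3.

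**Figure D1:**
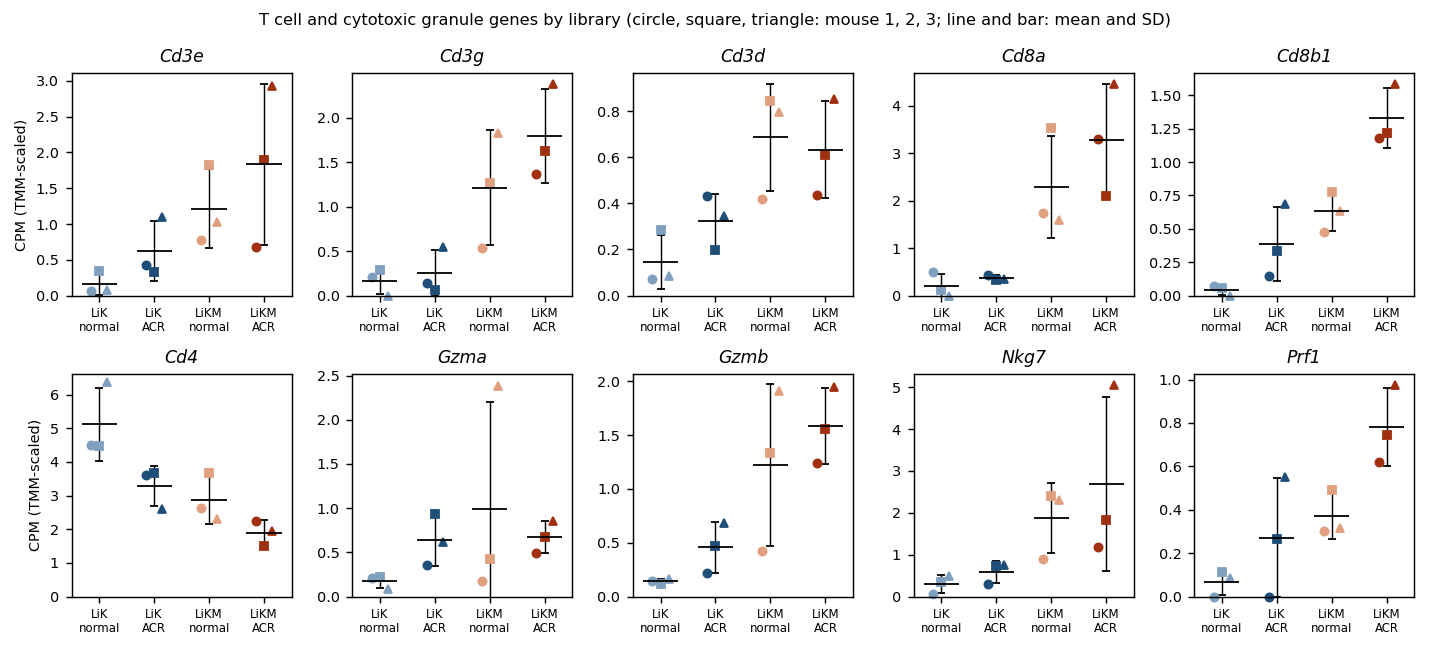
Level of each of the 10 genes in every library, in CPM with TMM scaling on a linear axis from 0 that differs between panels; points are mice, and lines and bars are the mean and SD of 3 mice (bars are cut at 0). Cd8a and Nkg7 lie higher in all 6 LiKM mice than in all 6 LiK mice, Cd4 falls from 5.11 CPM in LiK on the normal diet to 1.89 in LiKM on ACR, and single mice carry the mean of Gzma in LiKM on the normal diet and of Nkg7 in LiKM on ACR.

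Levels of different genes were compared per kilobase of annotated exons, merged over all transcripts of a gene, group by group. This length, from 914 bases for Nkg7 to 4080 for Cd3e, can exceed that of any single transcript. The order of the genes depends on it. In LiK on the normal diet Cd4 stood first at 1.27 ± 0.269 CPM per kilobase of annotated exons, above Nkg7 (0.333 ± 0.239) and Gzma (0.173 ± 0.0779), and Prf1 (0.0254 ± 0.0227), Cd8b1 (0.0286 ± 0.0252) and Cd3e (0.0403 ± 0.0372) were last and did not differ beyond their spread. In LiK on ACR Cd4 (0.816 ± 0.147), Nkg7 (0.648 ± 0.288) and Gzma (0.633 ± 0.285) led and did not differ beyond their spread. In LiKM mice given normal food Nkg7 had the highest mean, 2.04 ± 0.918 CPM per kilobase. Gzma (0.990 ± 1.20), Gzmb (0.851 ± 0.523), Cd4 (0.712 ± 0.175) and Cd8a (0.628 ± 0.295) followed without differing from one another beyond their spread. The spread of Nkg7 overlapped those of Gzma and Gzmb. In LiKM on ACR Nkg7 had the highest mean, 2.94 ± 2.27 CPM per kilobase, with 1.29, 2.00 and 5.54 in LiKM ACR 1, 2 and 3. Gzmb (1.10 ± 0.247), Cd8a (0.903 ± 0.323) and Cd8b1 (0.896 ± 0.150) followed. None of these, Nkg7 included, differed from the others beyond its spread. Cd4 was then at 0.470 ± 0.0935 CPM per kilobase, between Cd3g (0.548 ± 0.161) and Cd3e (0.450 ± 0.275). Ptprc (CD45), the protein tyrosine phosphatase on all leukocytes, has 18313 bases of merged exons against 4032 for Cd4. It was at 0.448 ± 0.158 CPM per kilobase in LiK on the normal diet and at 1.70 ± 0.0640 in LiKM on ACR. The former lies under Cd4 per kilobase, but in CPM Ptprc (8.21 ± 2.90) lay above Cd4 (5.11 ± 1.08) in that group.

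LiKM was first compared with LiK in mice that ate normal food. Cd8a was 10.7-fold higher in LiKM (log2 3.42, SE 0.65, edgeR adjusted p = 0.0047), Cd8b1 11.8-fold (log2 3.56, SE 0.73, edgeR adjusted p = 0.00656) and Gzmb 8.26-fold (log2 3.05, SE 0.65, edgeR adjusted p = 0.008). The CD3 chains rose too, Cd3e 6.52-fold, Cd3g 6.40-fold and Cd3d 4.16-fold (edgeR adjusted p = 0.0271, 0.0268 and 0.027), and Nkg7 rose 6.05-fold (edgeR adjusted p = 0.0264). Cd4 fell by 0.82 on the log2 scale (SE 0.25, edgeR adjusted p = 0.0375). Gzma did not pass (log2 2.35, SE 0.89, edgeR adjusted p = 0.078). Its log2 difference was 0.66 with LiKM normal diet 3 left out (edgeR adjusted p = 0.562). Prf1 had too few counts for the test.

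Thus 7 of the 10 genes rose and 1 fell, where 13.2% of the 13880 genes tested rose and 8.61% fell at an adjusted p under 0.05 in edgeR (quasi-likelihood, Benjamini-Hochberg over all of them). Libraries did not overlap for 8 genes higher and 1 lower, against 20.7% and 19.4% of genes tested. The median log2 fold change of the 9 genes tested was 2.68, against 0.02 over all genes. These shares are not independent support, because of the filter on low counts (0.677 CPM in 3 libraries). Its cutoff was reached by Cd3g, Cd3d, Cd8a, Cd8b1 and Gzmb only in LiKM libraries. Cd3e, Gzma and Nkg7 reached it in more LiKM than LiK libraries, and Cd4 in all 12. For Cd8b1, with 2 whole counts in LiK against 27 in LiKM, the ratio of pooled levels was 13.6 with a 95% exact Poisson interval of 3.42 to 118, and for Prf1, with 3 against 16, it was 5.38 (1.54 to 28.8). These intervals cover counting error only.

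The number of genes past the threshold on the normal diet hung on single mice. It was 3 when LiK normal diet 1 was left out, and 4 for each of LiK normal diet 3, LiKM normal diet 2 and LiKM normal diet 3. Cd8a, Cd8b1 and Gzmb passed without any 1 of the 12 libraries, and Cd4 failed without any of 5, at adjusted p up to 0.138 (edgeR). Library identifiers begin with KM or MP, and the labels do not say what the prefix stands for. Within KM libraries, with LiK normal diet 1 as the only LiK mouse on this diet, 1 gene passed, Nkg7, and Cd8a had a log2 difference of 2.18 (edgeR adjusted p = 0.0743). With the prefix as a covariate the same 7 genes rose and Cd4 did not pass (edgeR adjusted p = 0.126). Without the 3 libraries whose clock genes stood apart 5 genes rose. Cd4 also failed with library size alone as scaling (log2 -0.45, edgeR adjusted p = 0.181), which moves the median of all genes to 0.40.

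On ACR fewer of the genes passed; whether the strain difference itself changed with diet is tested at the end. Cd8a was 8.75-fold higher in LiKM (log2 3.13, SE 0.59, edgeR adjusted p = 0.0105), Cd3g 6.89-fold (log2 2.78, SE 0.69, edgeR adjusted p = 0.0288) and Cd8b1 3.36-fold (log2 1.75, SE 0.47, edgeR adjusted p = 0.0386). These 3 of 10 rose and 0 fell, against 5.55% and 4.24% of all genes tested, with 7 of 9 at an unadjusted p under 0.05. Cd3g, Cd8a and Cd8b1 reached the cutoff of the filter on low counts in 0 LiK libraries, so these shares are not independent support. Gzmb (log2 1.77, edgeR adjusted p = 0.0533) and Nkg7 (log2 2.17, edgeR adjusted p = 0.0545) lay just outside the threshold, then Cd4 (log2 -0.79, edgeR adjusted p = 0.0771). Cd3e (log2 1.55), Cd3d (0.95) and Gzma (0.08) had edgeR adjusted p of 0.126, 0.258 and 0.962. Libraries did not overlap for 7 genes higher and 1, Cd4, lower, against 17.2% and 16% of genes tested. Of the 7, Cd3d was apart only by 0.435 CPM in LiKM ACR 1 against 0.433 in LiK ACR 1.

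The 3 calls on ACR also moved with single libraries, to 1 without LiK ACR 1, LiKM ACR 2 or LiKM ACR 3, to 0 without LiK ACR 2 and to 5 without LiKM normal diet 1. Cd8a passed in 11 of the 12 fits that left out 1 library and missed without LiK ACR 2 (edgeR adjusted p = 0.0538). Within KM libraries, which leave out LiKM ACR 3, 1 gene passed, Cd8a (log2 2.84, edgeR adjusted p = 0.0232), as it did with the prefix as a covariate and without the 3 libraries whose clock genes stood apart (edgeR adjusted p = 0.0229 and 0.0452). DESeq2 called 5 genes on ACR, and 5 also passed with the replicate number as a block. All LiK mice on ACR had the high Dbp given above (136 to 139 CPM) and the LiKM mice on ACR had 3.22 to 15.4 CPM, so strain and clock state cannot be told apart in this comparison.

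Averaged over both diets, which sets 6 LiKM mice against 6 LiK mice in the same fit, 7 of the 10 genes rose and 1 fell, against 18.2% and 13.7% of all genes tested. Cd8a was 9.69-fold higher (log2 3.28, SE 0.44, edgeR adjusted p = 0.000359), Cd3g 6.64-fold (edgeR adjusted p = 0.00236), Cd8b1 6.30-fold (edgeR adjusted p = 0.0011), Gzmb 5.31-fold (edgeR adjusted p = 0.00154) and Nkg7 5.21-fold (edgeR adjusted p = 0.00375). Cd3e was 4.37-fold (edgeR adjusted p = 0.00714) and Cd3d 2.84-fold higher (edgeR adjusted p = 0.0124). Cd4 fell by 0.81 on the log2 scale (SE 0.18, edgeR adjusted p = 0.00638). Each of these 8 calls was kept without any 1 of the 12 libraries. Gzma had a log2 difference of 1.22 (edgeR adjusted p = 0.135), and Prf1, tested only without the filter on low counts, 1.88 (edgeR adjusted p = 0.0315). All 6 LiKM libraries lay above all 6 LiK libraries for 2 genes, Cd8a and Nkg7, and 0 lay wholly below, against 7.08% and 6.18% of genes tested. This average shares its libraries with the comparisons on each diet, and its shares are likewise not independent support, given the filter on low counts. In its ACR part strain and clock state cannot be told apart. Within KM libraries 6 genes rose, all but Cd3d of the 7, and without the 3 libraries whose clock genes stood apart 5 rose; Cd4 did not pass in either (log2 -0.56 to -0.92 over all alternatives).

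**Figure D2:**
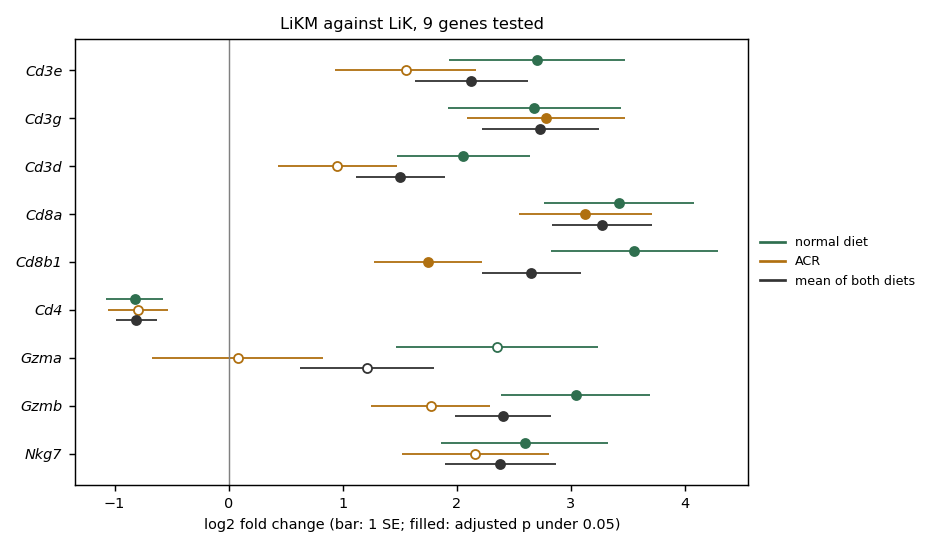
Log2 fold change of LiKM against LiK for the 9 genes tested, on the normal diet, on ACR and averaged over both, with bars of 1 SE; filled points have an edgeR adjusted p under 0.05. Cd4 lies near -0.8 in all 3 comparisons and the other genes lie above 0, with Gzma on ACR at 0.08.

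Ratios between genes of the same library do not depend on the scaling of libraries. Cd8a counts per Cd4 count ran from 0 to 0.132 in the 6 LiK libraries (median 0.0999) and from 0.659 to 2.28 in the 6 LiKM libraries (median 1.19), without overlap. Within LiKM the ratio was 0.659, 0.962 and 0.682 for normal food and 1.47, 1.41 and 2.28 for ACR. Cd4 did not follow the CD3 genes, at 64, 79 and 76 counts against 1, 6 and 1 of Cd3e in LiK on normal food. The ratio is therefore not read as one of killer to helper T cells. Against Ptprc, which itself rose from 8.21 ± 2.90 to 23.1 ± 0.988 CPM between LiK and LiKM on the normal diet, the 9 genes other than Cd4 summed to 27.3, 17.9 and 10.8 per 100 Ptprc counts in LiK mice given normal food and 24.8, 27.9 and 26.2 in those given ACR. The LiKM sums were 25.9, 53.4 and 56.4 for normal food and 32.4, 40.7 and 68.5 for ACR. LiKM normal diet 1 thus lay within the LiK range, and the other 5 LiKM libraries above it. Against the summed counts of 10 leukocyte genes the strains did not overlap, at 7.06 to 26.6 counts of the 9 genes per 1000 in LiK and 31.1 to 78.3 in LiKM. Cd4 per 100 Ptprc counts was 91.4, 42.9 and 68.5 in LiK on the normal diet, 36.5, 28.1 and 12.1 in LiK on ACR, 11.9, 15.2 and 10.3 in LiKM on the normal diet and 6.91, 4.94 and 6.36 in LiKM on ACR. Gzma per 100 Ptprc counts had a median of 3.26 in LiK and 2.00 in LiKM. These ratios are descriptions, with no test, and in whole tissue fewer cells of a type and less RNA per cell cannot be told apart.

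**Figure D3:**
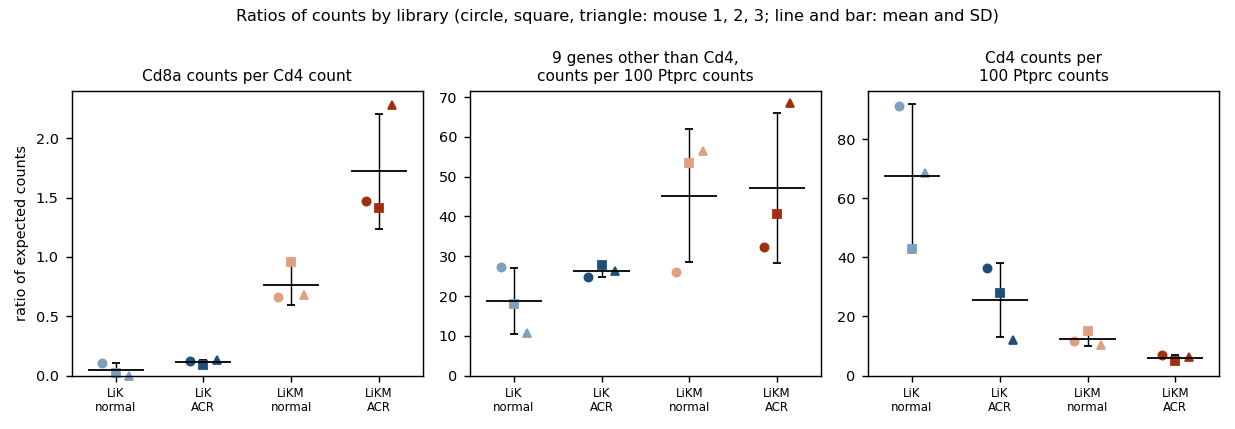
Cd8a counts per Cd4 count, counts of the 9 other genes per 100 Ptprc counts and Cd4 counts per 100 Ptprc counts in each library on linear axes; points are mice, lines and bars the mean and SD of 3. The first ratio lies at 0.132 or below in LiK and at 0.659 or above in LiKM, the second overlaps through LiKM normal diet 1 at 25.9, and the third falls from LiK on the normal diet to LiKM on ACR.

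Other genes of T and NK cells were counted from lists that share no gene with the 10. Their counts stand against the 13.2% of all genes tested that rose and the 8.61% that fell with normal food, and with ACR 5.55% and 4.24%. The filter on low counts applied here too, so that a gene rare in LiK could be tested through its LiKM libraries, and the counts are not independent support. Of 17 genes of T cell receptor signalling tested (25 listed), 9 rose and 0 fell in LiKM on the normal diet, with a median log2 fold change of 1.76 against 0.02 over all genes. Among them the kinase Lck, which CD4 and CD8 bring to the receptor, rose from 0.328 ± 0.184 to 2.19 ± 1.08 CPM (edgeR adjusted p = 0.00863) and the surface protein Thy1 from 0.525 ± 0.212 to 2.54 ± 0.289 (edgeR adjusted p = 0.00603). On ACR 2 of these 17 rose, among them Lck (3.98-fold, edgeR adjusted p = 0.0323). Not all of the list moved this way. Over both diets 13 of the 17 rose and 1 fell, against 18.2% and 13.7% of all genes tested. Plcg1 fell (log2 -0.43, edgeR adjusted p = 0.0146), and Zap70 (-0.47) and Cd247 (0.16) did not pass. On the normal diet the list summed to 60.7 to 79.2 CPM in LiK and 76.1 to 93.0 in LiKM, with overlap. Of 20 NK receptor and adaptor genes listed 8 were tested, of which 6 rose on the normal diet and 3 on ACR. Cd244, a receptor of NK and killer T cells, rose from 0.174 ± 0.106 to 1.35 ± 0.255 CPM (edgeR adjusted p = 0.00139) and Sh2d1b1, an adaptor of such receptors, from 0.0703 ± 0.0136 to 0.667 ± 0.156 (edgeR adjusted p = 0.00771). Itga2, an integrin chain that mouse NK cells carry and platelets and epithelia also make, rose 24.3-fold (edgeR adjusted p = 0.000413).

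Of 11 granule and death ligand genes tested (16 listed), 4 rose and 0 fell on the normal diet (13.2% and 8.61% of all genes), and 2 rose on ACR (5.55%). The median log2 fold change on the normal diet was 0.47, with 9 of 11 above 0. On that diet the 16 listed genes summed to 714 to 807 CPM in LiK and 585 to 715 in LiKM. The granzyme Gzmk had 0 counts in all 3 LiK libraries on the normal diet and 43 in LiKM, at least 14.5-fold higher when LiK is set to a limit of 3 counts over the group (edgeR adjusted p = 0.00169). The 95% exact Poisson interval of this ratio, which also lets the LiKM count vary, starts at 11.3. Stx11, a syntaxin of granule release, rose from 0.323 ± 0.0361 to 1.10 ± 0.0577 CPM (edgeR adjusted p = 0.00447) and Serpinb9, an inhibitor of granzyme B, from 8.58 ± 1.56 to 14.2 ± 1.31 (edgeR adjusted p = 0.0176). On ACR neither Stx11 nor Serpinb9 passed, at log2 0.94 and -0.23 (edgeR adjusted p = 0.062 and 0.441). Of 15 transcription factors tested (18 listed) 5 rose on the normal diet, among them Runx3, a factor of the CD8 lineage (8.69-fold, edgeR adjusted p = 0.00171), and Prdm1 (3.25-fold, edgeR adjusted p = 0.0122). The median log2 fold change of the 15 was 0.46, with 10 above 0. On that diet the 18 listed factors summed to 504 to 540 CPM in LiK and 368 to 501 in LiKM. Eomes, a T-box factor of NK and memory CD8 T cells, had 2 counts in LiK and 24 in LiKM (ratio of pooled levels 12.1, 95% exact Poisson interval 3.00 to 106, edgeR adjusted p = 0.0198). Of 10 checkpoint and costimulatory genes tested (15 listed) 3 rose on the normal diet. Their median log2 fold change was 1.13 and the lowest was -0.32, with 9 of 10 above 0. The inhibitory receptor Pdcd1 (PD-1) had 0 counts in LiK and 28 in LiKM, at least 9.41-fold higher with the same limit of 3 counts (edgeR adjusted p = 0.016), and its exact Poisson interval starts at 7.16. Havcr2 (TIM-3), also on myeloid cells, rose from 0.661 ± 0.305 to 2.43 ± 1.08 CPM (edgeR adjusted p = 0.0127). Btla, an inhibitory receptor of lymphocytes, rose 4.26-fold (edgeR adjusted p = 0.0309). Over both diets 5 of the 10 rose, against 18.2% of all genes tested. Lag3 (log2 0.42), Icos (0.68) and Cd86 (0.31) were among those that did not pass.

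Of 14 homing genes tested (16 listed) 8 rose on the normal diet and 7 on ACR, against 13.2% and 5.55% of all genes. Ccl5, a chemokine that T and NK cells make and that draws them, rose from 0.412 ± 0.180 to 6.49 ± 3.41 CPM with normal food (edgeR adjusted p = 0.00281) and from 2.06 ± 1.18 to 10.6 ± 4.81 with ACR (edgeR adjusted p = 0.023). Cxcl16, the ligand of Cxcr6, rose from 7.24 ± 2.11 to 22.5 ± 4.06 CPM on the normal diet (edgeR adjusted p = 0.000707). Ccl3 had 2 counts in LiK and 26 in LiKM (ratio of pooled levels 13.1, 95% exact Poisson interval 3.28 to 114, edgeR adjusted p = 0.0123).

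Markers of other leukocytes moved with the strain as well. Over all genes 13.2% rose and 8.61% fell on the normal diet. Of 10 genes of all leukocytes 9 rose there (median log2 1.23), and their summed level lay between 100.1 and 157 CPM in LiK and 181 and 209 in LiKM. Summed monocyte markers lay between 54.1 and 143 CPM in LiK and 163 and 204 in LiKM, dendritic cell markers between 11.3 and 17.4 and between 33.3 and 38.3, and neutrophil markers between 2.40 and 5.49 and between 10.9 and 13.9; 4 of 10, 5 of 9 and 3 of 4 tested rose. Summed markers of B and plasma cells lay between 4.02 and 4.58 CPM in LiK and 4.92 and 20.4 in LiKM, and 1 of 7 tested rose, a share near that of all genes. Kupffer cell markers had 0 of 10 past the threshold and a median of 0.13, with sums of 483 to 800 CPM in LiK and 374 to 700 in LiKM. Hepatocyte markers fell in 3 of 8 (median -0.69). Bile duct markers rose in 6 of 6 (median 4.35), with sums of 34.2 to 51.3 CPM in LiK and 566 to 1001 in LiKM. In LiK mice on the normal diet Sh2d1a and Trat1 of the receptor signalling list, Klri2, Klra9 and Klrg1 of the NK list, Gzmk, Gzmc and Ifng of the granule list and Pdcd1, Ctla4 and Pdcd1lg2 of the checkpoint list were at 0. None of the listed markers of the other cell types was at 0 in any of the 4 groups. The part of these cell types in the differences of the 10 genes was not tested.

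**Figure D4:**
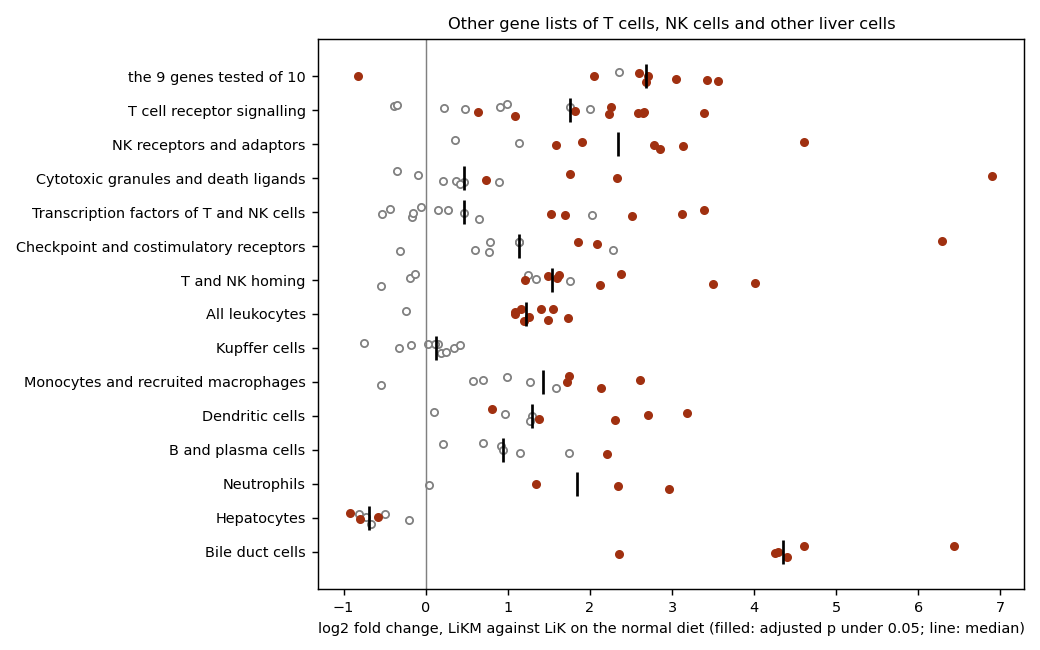
Log2 fold change of LiKM against LiK on the normal diet for each tested gene of the 10 and of 14 other lists; filled points have an edgeR adjusted p under 0.05, and vertical lines are medians. The fitted values of Gzmk and Pdcd1, at 0 in LiK, are set by the prior count; Kupffer cell markers lie around 0, at a median of 0.13, and bile duct markers highest, at 4.35.

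The comparison of ACR with the normal diet asks what the drug changed in each strain. By edgeR 0 of the 10 genes passed in LiK, where 0.195% of genes tested did, and 0 in LiKM, where 0% did; DESeq2 also called 0 of the 10 in both, while over all genes it called 401 in LiK and 78 in LiKM where edgeR called 27 and 0. At an unadjusted p under 0.05 there were 3 in LiK and 2 in LiKM. Cd8b1 had the largest difference in both strains, log2 2.89 in LiK (SE 0.78, edgeR adjusted p = 0.146) and 1.08 in LiKM (SE 0.44, edgeR adjusted p = 0.625), and its diet groups did not overlap in either strain. Cd4 lay lower on ACR in both strains without overlap, at log2 -0.63 in LiK (SE 0.25, edgeR adjusted p = 0.295) and -0.60 in LiKM (SE 0.27, edgeR adjusted p = 0.672). Libraries on ACR lay wholly above those on the normal diet for 3 genes in LiK (Cd8b1, Gzma and Gzmb) and 2 in LiKM (Cd8b1 and Prf1), against 13.4% and 3.94% of genes tested, and wholly below for Cd4, against 14.6% and 6.7%.

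For the other genes the diet groups differed by less than or little more than their SE in LiKM: Cd3e log2 0.60 (SE 0.57), Cd3g 0.59 (0.57), Cd8a 0.52 (0.48), Nkg7 0.54 (0.57) and Gzmb 0.40 (0.47), with Cd3d at -0.10 (0.47) and Gzma at -0.49 (0.73). In LiK Cd3e was at log2 1.75 (SE 0.82), Gzma at 1.78 (0.92), Gzmb at 1.68 (0.73), Cd3d at 1.01 (0.64), Nkg7 at 0.98 (0.81), Cd8a at 0.82 (0.80) and Cd3g at 0.48 (0.93). Both comparisons had Ptprc higher in the ACR groups, at 14.8 ± 5.98 CPM against 8.21 ± 2.90 in LiK and 31.1 ± 1.17 against 23.1 ± 0.988 in LiKM. Within LiK the summed NK receptor markers were 2.40, 3.51 and 2.68 CPM with normal food and 4.18, 6.79 and 12.7 with ACR, the last in LiK ACR 3, which also had the highest CPM of Cd3e, Cd3g, Cd8b1, Gzmb, Nkg7 and Prf1 of the 6 LiK libraries. Their part in these values was not tested. Of LiK mice on the normal diet 2 of 3 carry the prefix MP and on ACR 0 of 3, so within KM libraries only 1 mouse is left on the normal diet; there Cd8a had a log2 difference of -0.41.

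**Figure D5:**
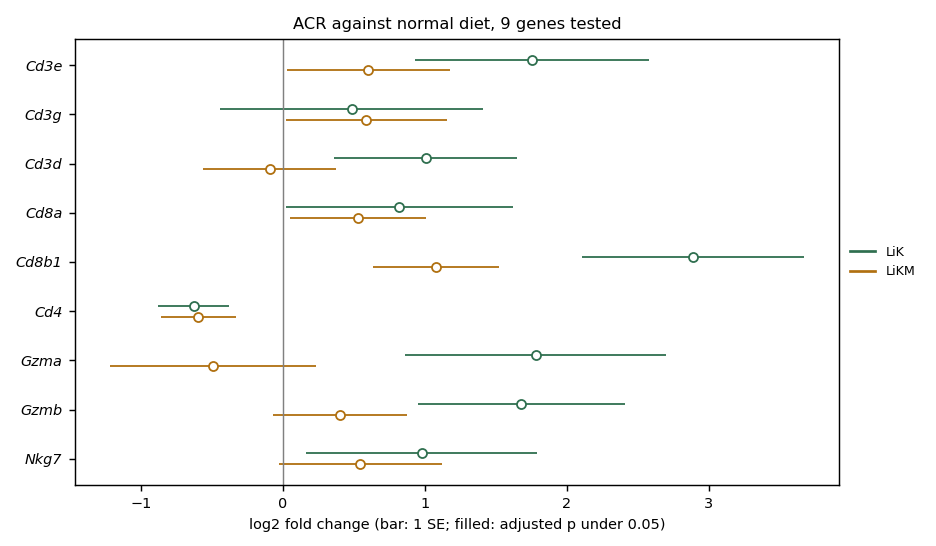
Log2 fold change of ACR against the normal diet in LiK and in LiKM for the 9 genes tested, with bars of 1 SE; open points have an edgeR adjusted p of 0.05 or more, which holds for all. Cd4 lies at -0.63 and -0.60, and Cd8b1 is highest in both strains, at 2.89 and 1.08.

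Whether ACR acted differently in the strains was tested as the difference of the diet effects. By edgeR 0 of the 10 genes passed, where 0.0072% of genes tested did, with 0 at an unadjusted p under 0.05, and DESeq2 called 0 of the 10 and 160 of all genes. The estimates were log2 -2.27 for Gzma (SE 1.18, edgeR adjusted p = 0.487), -1.81 for Cd8b1 (SE 0.91, edgeR adjusted p = 0.476), -1.27 for Gzmb (SE 0.86), -1.15 for Cd3e (SE 1.00) and -1.10 for Cd3d (SE 0.79). Nkg7 (-0.43), Cd8a (-0.29), Cd4 (0.03) and Cd3g (0.11) lay within 1 SE of 0. With these counts, SEs between 0.79 for Cd3d and 1.30 for Cd3g leave differences of several fold undetectable in the genes other than Cd4. The SE for Cd4 was smaller, at 0.38.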

How the data were processed

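RNA was prepared with a stranded mRNA kit, per the labels' protocols. The deposited table holds expected counts per gene symbol, some not whole; featureCounts 2.0.0 and mm10 are named in the submitters' processing notes, and the sources used here name no aligner, annotation or strand setting. All 12 value columns matched a sample's description, with 0 left over. Expected counts were rounded. edgeR 4.0.16 (R 4.3.3) kept 13880 genes with filterByExpr, scaled with TMM and fitted a robust quasi-likelihood model with 1 coefficient per group to all 12 libraries (common biological coefficient of variation 0.203). Adjusted p-values are Benjamini-Hochberg over all genes tested, with a threshold of 0.05, and SE is the log2 fold change over the root of F. DESeq2 1.42.0 and the other alternatives are given at the end. Scripts were tested on simulated data.

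The 10 genes, the other lists and the alternatives were chosen with earlier results of these data known. Named are the 10 genes, Ptprc, and up to 3 genes of smallest p past the threshold from each list, apart from an item that is not reported here; those of other cell types are given as counts and sums, and further names were chosen after their values were seen. Clock genes were chosen after seeing the data. Gene positions and exon lengths are from GENCODE M21 (mm10).

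Libraries of a group differed by more than counting noise (chi-square at least 15.8 for each degree of freedom). Same-numbered LiKM mice on both diets deviated together from their group means (correlation across genes 0.37, 0.22 and 0.48), though no label says what a number shares; with the replicate number as a block within LiKM 0 of the 10 genes passed for diet, while over all genes 73 of 13694 passed where 0 did without the block. No other pair of groups met this.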

Additional observations from a re-analysis of the deposited data

How the results depend on the processing

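The number of the 10 genes past the threshold on the normal diet, 8, was 3 with only the groups compared (4 genes tested), 1 with only KM libraries and 5 without the 3 libraries whose clock genes stood apart, and 3 to 9 when 1 library was left out. On ACR, 3 became 5 with DESeq2, 5 with the replicate block, 1 with the identifier prefix as a covariate, 1 with only KM libraries, 1 without the 3 libraries, and 0 to 5 when 1 library was left out. Over both diets, 8 became 5 without the 3 libraries. With the replicate block the counts were 7 on the normal diet and 8 over both diets, and 0 for each diet comparison; on the normal diet Cd4 lost its call. Only within LiKM do numbers go together; the block there called 0 of the 10 genes, as without it, but 73 of all genes against 0. The diet comparisons and their difference had 0 under every alternative run. Settings with KM libraries only, without the 3 libraries and with the block within LiKM were added after seeing the data.

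Library size alone moves the split of all calls to 97.6% higher against 60.6% on the normal diet, 77.9% against 56.7% on ACR and 92.1% against 57.1% over both diets; the strain directions of the 9 genes tested held.

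Under the alternatives run, the log2 values that changed sign were of genes not past the threshold. With library size alone the difference of diet effects was -0.16 for Cd3g and -0.23 for Cd4. With the prefix as a covariate Gzma on ACR was -0.034, Nkg7 for diet in LiKM -0.33, and the differences of diet effects -0.38 for Cd3g and -0.14 for Cd4. With KM libraries alone Gzma on ACR was -0.13, Cd8a for diet in LiK -0.41, Nkg7 for diet in LiKM -0.29, and the differences 0.66 for Cd8a and -0.16 for Cd4. Without the 3 libraries Gzma on ACR was -0.37, and for diet in LiKM Cd3e was -0.895, Gzma 0.75 and Nkg7 -0.45. Leaving out 1 library gave -0.20 to 0.45 for Gzma on ACR and -0.71 to 1.10 for Cd3g for diet in LiK. For diet in LiKM it gave -0.35 to 0.11 for Cd3d, -1.01 to 1.18 for Gzma, -0.014 to 0.88 for Gzmb and -0.27 to 0.90 for Nkg7. For the difference of diet effects it gave -0.51 to 1.31 for Cd3g, -0.15 to 0.25 for Cd4, -1.80 to 0.18 for Cd8a and -1.27 to 0.019 for Nkg7. Causes were not tested. Where a group is left with 1 mouse, it is assumed to vary like the others. A few counts per library limit all these values.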
